A study of Mus musculus with 2 samples.

Results

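A set of 7 organ-linked miRNA genes, Mir206, Mir133b, Mir208b and Mir499 of muscle, Mir192 and Mir194-2 of liver and gut, and Mir375 of endocrine cells, are described here in the mouse embryonic forebrain. They were picked by name for the organs they are known from and not by a rule on their values, though earlier results of these data were known. They make up 7 of the 1973 genes counted. Small RNA came from whole forebrains of strain B6NCrl embryos at 10.5 days of development, males and females pooled, with no treatment or mutation named. The 2 libraries form 1 group and are biological replicates from separate pools, replicate 1 of 69 embryos and replicate 2 of 51 embryos. Because embryos were pooled, spread between single embryos was not measured, and no other organ or age was set beside the forebrain.

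A miRNA is cut from a hairpin transcript as a short single strand, and it guides repression of messenger RNAs that pair with its seed, the stretch near its 5′ end. Many miRNAs are strongly enriched in 1 organ, which makes them sensitive markers of that organ's cells in a tissue dissection. miR-208b and miR-499 lie inside myosin heavy chain genes and are known from heart and slow muscle. miR-206 and miR-133b are made from a shared locus in skeletal muscle, miR-192 and miR-194 from a shared locus in liver, gut and kidney epithelium, and miR-375 is best known from pancreatic islets and the pituitary. None of them is a classic miRNA of forebrain neuroepithelium.

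The mature sequences below are shown because they decide which reads can be told apart, with the seed (bases 2 to 8) in capitals. They come from RefSeq on GRCm38.p6, the assembly also called mm10, where all 7 members were matched. The miR-208b and miR-499 arms are given with miR-208a, the copy in the neighbouring myosin gene Myh6.
mmu-miR-208b-3p: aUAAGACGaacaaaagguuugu
mmu-miR-208a-3p: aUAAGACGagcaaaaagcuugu
mmu-miR-499-5p: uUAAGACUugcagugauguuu
The miR-208b-3p and miR-208a-3p arms shared all 7 seed bases and differed at 3 of 22 positions (A10G, G16A and U18C, miR-208b base first, positions counted from 1 at the 5′ end). The seed of miR-499-5p differed from that of miR-208b-3p at its last base only (G8U).

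Members of the skeletal muscle pair have different seeds, as the next lines show.
mmu-miR-206-3p: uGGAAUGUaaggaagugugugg
mmu-miR-133b-3p: uUUGGUCCccuucaaccagcua
The liver and gut sequences are set beside those of the second copy of the locus on chromosome 1, which holds Mir194-1 and Mir215.
mmu-miR-192-5p: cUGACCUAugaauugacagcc
mmu-miR-215-5p: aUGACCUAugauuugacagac
mmu-miR-194-5p: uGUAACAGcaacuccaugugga
mmu-miR-194-2-3p: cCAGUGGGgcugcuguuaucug
mmu-miR-194-1-3p: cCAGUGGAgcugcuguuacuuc
The miR-194-5p sequence was found in 2 of the 1005 listed hairpins, Mir194-1 and Mir194-2. The other printed arms of members were each found in 1 of these listed hairpins. The list is shorter than the 1973 genes counted. Copies or near copies in unlisted hairpins were not searched, so a single match does not show that the reads are unique. miR-192-5p and miR-215-5p share their seed and differed at 3 of 21 positions (C1A, A12U and C20A). The 3p arms of the miR-194 copies differed at 4 of 22 positions (G8A, U19C, C20U and G22C). For Mir375, the whole hairpin is shown with its listed 5p arm in capitals. No 3p arm was listed for it, so none is marked. The capitals do not show which arm gave its reads.
Mir375 hairpin, chr1:74900658-74900721, minus strand: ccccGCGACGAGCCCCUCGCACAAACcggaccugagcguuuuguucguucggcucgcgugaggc

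The deposited values are whole counts of reads per miRNA gene, so the arms of a hairpin were not told apart. Replicate 1 held 3256070 gene counts of 8559330 reads, and replicate 2 held 3574530 of 9664755. A further 2577249 reads of replicate 1 and 2780180 of replicate 2 matched more than 1 place in the genome and were assigned to no gene. Levels are counts per 1000000 gene counts (CPM), with exact 95% Poisson or binomial intervals that cover counting error only, since copies made by PCR are not separate molecules. A mature miRNA gives reads of its own short length, so CPM is not divided by hairpin length unless stated. A count of 0 was taken to allow up to 3 counts, or 0.921 CPM in replicate 1 and 0.839 CPM in replicate 2. This set limit lies under the exact 95% upper bound of a count of 0, which is 3.69 counts. Markers of the labelled tissue were unevenly counted. Of 8 counted genes of the forebrain progenitor list, 7 had at least 10 counts in each library. The list also holds the Mir124a genes, of a miRNA best known from neurons, so it does not cover progenitors alone. Mir92b, a miRNA of neural progenitors, had 19407 CPM in replicate 1 and 17048 CPM in replicate 2, and Mir9-3 of the forebrain had 363 and 315 CPM. Mir9-2, Mir124a-2 and Mir124a-3 averaged only 5.58, 4.82 and 4.54 CPM, below the muscle member Mir499, and Mir124a-1 had 3 and 4 counts. miR-9 and miR-124 are each made from several loci, so reads that match more than 1 of them are missing from these genes. Whether the low levels come from unassigned reads or from the cells present was not tested. The progenitor gene Mir9-1 was not analysed here.

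Most members were detected, and the count to reach was 10 reads per library. In replicate 1 it was reached by 5 of the 7 members, and in replicate 2 likewise by 5 of 7. Over all 1973 genes, of which 1234 had no count in either library, 20.5% reached it in replicate 1 and 20.6% in replicate 2. The share was 19.5% in both libraries together, where 5 members passed. They were Mir375, Mir194-2, Mir192, Mir208b and Mir499. Mir206 stayed just under 10 counts in each library and above the limit of a count of 0. Mir133b had no read in either library. By organ, 1 of 1 endocrine, 2 of 2 liver and gut and 2 of 4 muscle members passed in both libraries.

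**Figure D1:**
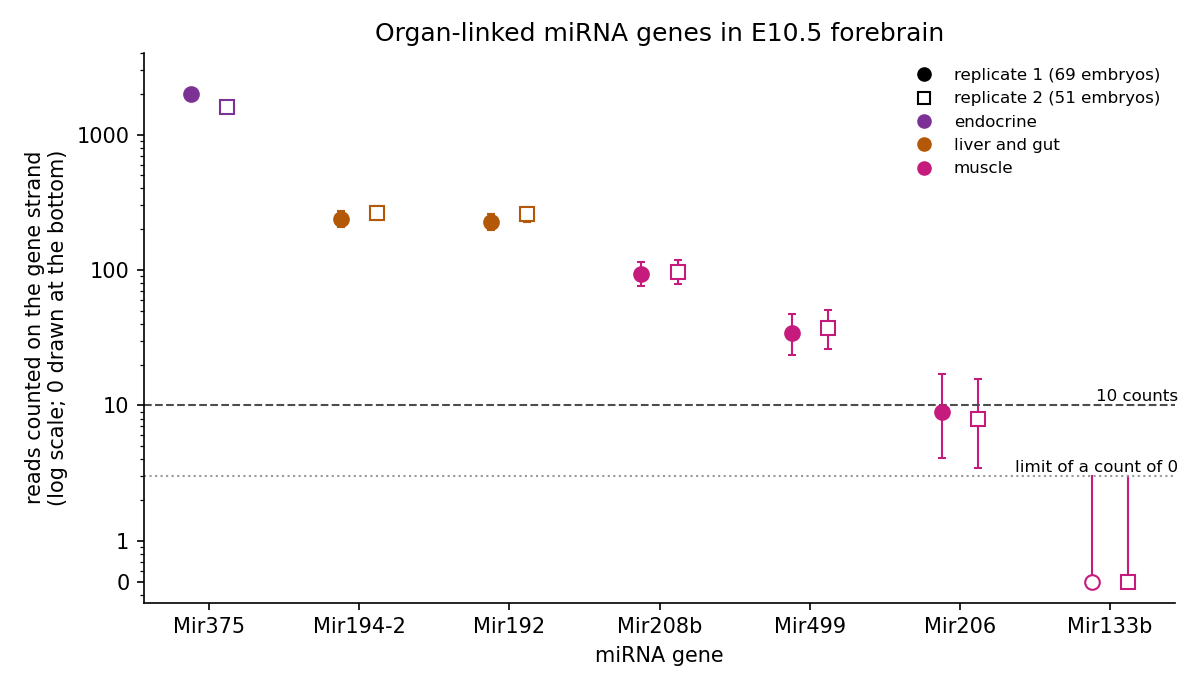
Reads counted on the gene strand (log scale) for the 7 members in replicate 1 (circles) and replicate 2 (open squares), coloured by organ, with exact 95% Poisson intervals. Mir375 lies highest with 1997 and 1601 counts, and Mir206 lies under the dashed line at 10 counts. Mir133b, drawn at the bottom as open symbols, is at 0 with lines to the set limit of 3 counts, not the exact bound.

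The muscle members split by locus. Mir208b (ENSMUSG00000077928.1), in an intron of Myh7 on the same strand (mm10 chromosome 14, 54975700 to 54975776, minus strand), had 94 counts in replicate 1 and 97 in replicate 2. These counts are 28.9 CPM (interval 23.3 to 35.3) in replicate 1 and 27.1 CPM (22.0 to 33.1) in replicate 2. Its mean of 28.0 ± 1.2 CPM (SD, n = 2) was the highest of the muscle members, and the libraries overlapped within counting error. Myh7 encodes the slow, beta-cardiac myosin heavy chain.

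Mir499 (ENSMUSG00000076312.1), in an intron of the related myosin gene Myh7b (chromosome 2, 155622880 to 155622958, plus strand), had 34 counts in replicate 1 and 37 in replicate 2. At 10.4 CPM in each library (intervals 7.23 to 14.6 and 7.29 to 14.3), it did not differ between the pools beyond counting error. Mir208b exceeded Mir499 by 2.76 times in replicate 1 and 2.62 times in replicate 2, and their intervals did not overlap in either library. Mir208a of the Myh6 intron, which encodes the alpha-cardiac myosin, had 22 and 13 counts. Mir208b exceeded this copy 4.27-fold in replicate 1 and 7.46-fold in replicate 2. The seeds of the 3 myosin-intron arms printed above are thus alike while the counts of their genes differ.

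The skeletal muscle pair was close to or at the floor. Mir206 (ENSMUSG00000065559.1; chromosome 1, 20679010 to 20679082, plus strand) had 9 counts in replicate 1 and 8 in replicate 2, or 2.76 CPM (1.26 to 5.25) and 2.24 CPM (0.966 to 4.41). Mir133b (ENSMUSG00000065480.1; 20682769 to 20682887) lies 3686 bases downstream on the same strand and had 0 counts in both libraries. Both hairpins overlap exons of the long non-coding RNA gene Gm28653. The Mir206 counts were 3 times the set limit of 3 counts in replicate 1 and 2.67 times that limit in replicate 2. These multiples leave out the counting error of Mir206. The ratio of Mir133b to Mir206 had exact intervals of 0 to 0.507 in replicate 1 and 0 to 0.586 in replicate 2. The myosin-intron members held 128 and 134 counts together, against 9 and 8 for the chromosome 1 pair.

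The longer heart and muscle list was divided in the same way between counted genes and genes at 0. Of 12 names 10 were counted, and Mir1a-2 and Mir486b were not analysed here. In each library 5 of the 10 had at least 10 counts, 1 had 4 to 9 and 4 were at 0. At 0 were Mir133b and 3 defining muscle genes, Mir1a-1, Mir133a-1 and Mir133a-2, whose mature sequences belong to families of several loci. Reads that map to several places went to no gene, so 0 does not show absence of miR-1 or miR-133a. The 0 of Mir133b does not show absence of miR-133b either, since reads it may share with the miR-133a genes were not examined. Mir486, which is also known from red blood cells, was the highest of the list with 105 and 114 counts (32.1 ± 0.25 CPM). Mir1b, whose hairpin overlaps that of Mir1a-2 on the opposite strand, had 35 and 21 counts.

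The liver and gut pair gave nearly equal counts. Mir194-2 (ENSMUSG00000065582.1; chromosome 19, 6264643 to 6264728, plus strand) had 238 counts in replicate 1 and 265 in replicate 2, or 73.1 CPM (64.1 to 83.0) and 74.1 CPM (65.5 to 83.6). Mir192 (ENSMUSG00000065523.1; 6264844 to 6264932) starts 115 bases beyond its neighbour's end on the same strand and had 226 and 258 counts, or 69.4 CPM (60.7 to 79.1) and 72.2 CPM (63.6 to 81.5). GENCODE release M21 lists no other gene over either hairpin. The intervals of the neighbours overlapped in each library, so their order was not settled.

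Mir194-2 made up 51.3% (exact interval 46.6 to 55.9) of the pair's counts in replicate 1 and 50.7% (46.3 to 55.0) in replicate 2. Its ratio to Mir192 was 1.05 in replicate 1 and 1.03 in replicate 2, a mean of 1.04 ± 0.018 (SD, n = 2), and did not differ between the libraries (Fisher's exact test, two-sided, p = 0.85). The level of Mir194-2 is uncertain, since the 5p sequence printed above is held by Mir194-1 too and reads that match both copies were assigned to neither. The copy of this locus on chromosome 1 had few assigned reads, with 1 and 1 counts for Mir194-1 and 3 and 1 for Mir215. The counts of Mir194-1 leave out the shared 5p reads too, so its level is as uncertain.

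Mir122, a miRNA of hepatocytes, had 35 counts in each library (10.3 ± 0.68 CPM). Mir192 exceeded it 6.46-fold in replicate 1 and 7.37-fold in replicate 2. Of the 5 genes of the liver and gut list, 3 had at least 10 counts and 2 had 1 to 3 counts in each library.

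Mir375 stood well above the other members. Mir375 (ENSMUSG00000065616.2; chromosome 1, 74900658 to 74900721, minus strand) overlaps no other gene of release M21, and Cfap65 lies nearest at 1349 bases. It had 1997 counts in replicate 1 and 1601 in replicate 2, or 613 CPM (587 to 641) and 448 CPM (426 to 470). Replicate 1 was clearly the higher library. Mir375 exceeded Mir194-2, the next member, 8.39-fold in replicate 1 and 6.04-fold in replicate 2. Because the counts of Mir194-2 leave out reads shared with Mir194-1, this lead may be an upper limit.

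The other genes of the endocrine list are known from islets and neuroendocrine cells (the miR-7 genes) and from the exocrine pancreas (Mir216a, Mir216b and Mir217). All 7 had at least 10 counts in both libraries. After Mir375 came Mir7-1 with 215 CPM in replicate 1 and 253 CPM in replicate 2, so Mir375 led it by 2.86 times and 1.77 times. The miR-7 genes are of several loci, so their counts may be lower limits and the lead of Mir375 over Mir7-1 an upper limit. Mir217 had 187 and 198 counts, Mir216b 76 and 77, and Mir216a 45 and 45. In bulk tissue, fewer cells of a type and less RNA per cell cannot be told apart, for these genes and all others here.

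**Figure D2:**
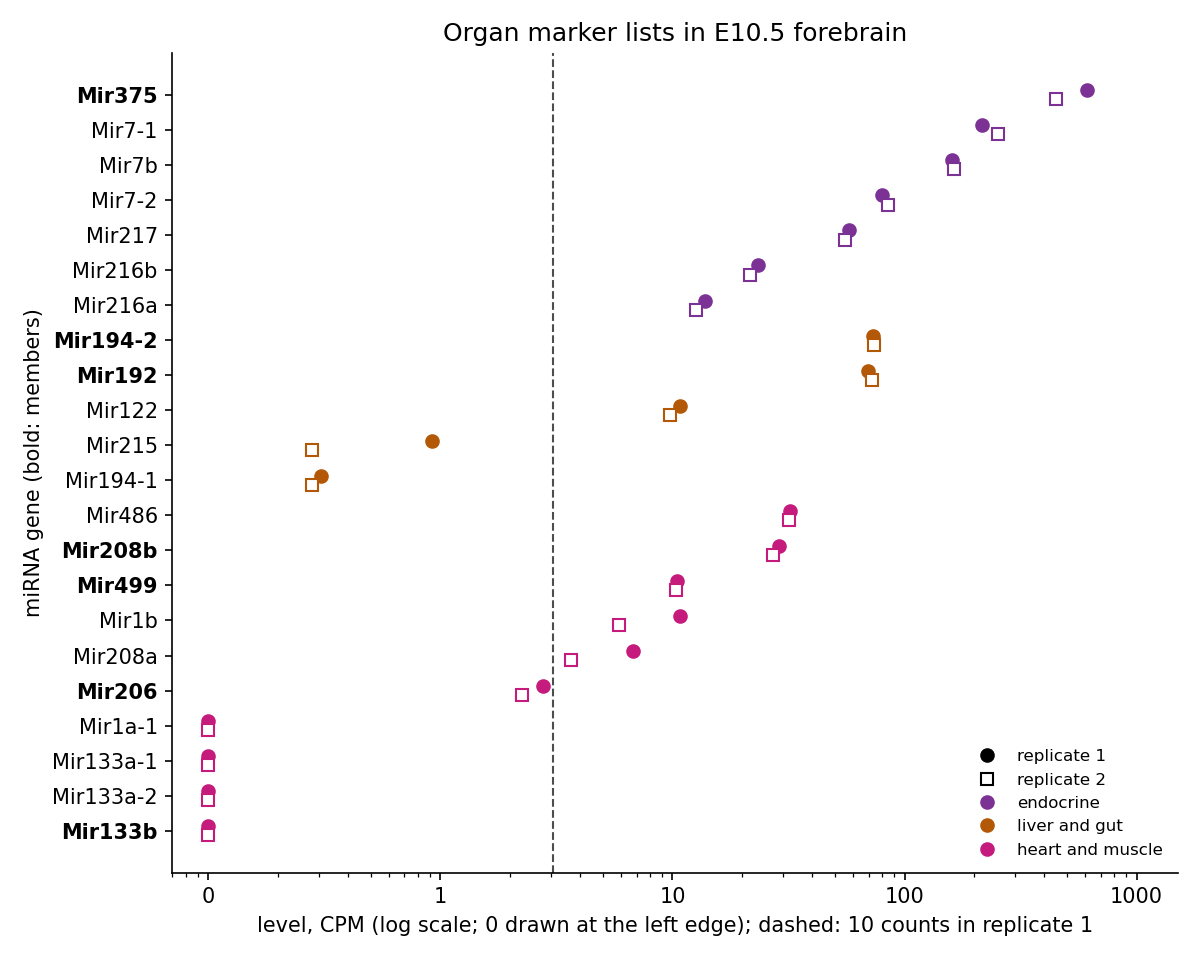
Level in CPM (log scale, 0 drawn at the left) of every counted gene of the endocrine, liver and gut, and heart and muscle lists in replicate 1 (filled circles) and replicate 2 (open squares), with members in bold. All endocrine genes lie right of the dashed line at 10 counts, while Mir194-1 and Mir215 lie left of it and 4 heart and muscle genes are at 0.

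Summed by organ, Mir375 alone held 0.0613% of replicate 1 (exact interval 0.0587 to 0.0641) and 0.0448% of replicate 2 (0.0426 to 0.0470), out of all gene counts. The liver and gut pair held 0.0143% (0.0130 to 0.0156) and 0.0146% (0.0134 to 0.0159). The 4 muscle members held 0.00421% (0.00353 to 0.00497) and 0.00397% (0.00335 to 0.00468). By assigned counts, endocrine came first, liver and gut next and muscle last in both libraries and the intervals of different organs did not overlap. These intervals cover counting error only. Reads that match several places went to no gene, such as those shared by Mir194-2 and Mir194-1 and any that Mir133b shares. Their effect on the order of organs was not tested. Mir375 exceeded the liver and gut pair 4.30-fold and 3.06-fold, and that pair exceeded the muscle members 3.39-fold and 3.68-fold. All 7 members together held 0.0798% of the counts in replicate 1 and 0.0634% in replicate 2.

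In order of mean level, the members were Mir375 (531 ± 117 CPM, SD, n = 2, as for the values that follow), Mir194-2 (73.6 ± 0.74 CPM), Mir192 (70.8 ± 2.0 CPM), Mir208b (28.0 ± 1.2 CPM), Mir499 (10.4 ± 0.064 CPM), Mir206 (2.50 ± 0.37 CPM) and Mir133b (0 CPM). The exact Poisson intervals of Mir194-2 and Mir192 overlapped in both libraries. Those of Mir206 and Mir133b did not overlap in replicate 1, where the lower bound of Mir206 was 1.26 CPM and the upper bound of Mir133b 1.13 CPM. They overlapped in replicate 2, with bounds of 0.966 CPM for Mir206 and 1.03 CPM for Mir133b. The other neighbours in this order had intervals that did not overlap in either library. None of these intervals covers unassigned reads that match several places, such as the shared reads of Mir194-2. Divided by hairpin length, the order stayed the same, from 829 CPM per 100 bases for Mir375 and 85.6 for Mir194-2 to 3.43 for Mir206.

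By mean level Mir375 ranked 134 of 1973 genes, Mir194-2 ranked 232, Mir192 ranked 235, Mir208b ranked 274, Mir499 ranked 322 and Mir206 ranked 409. Mir335, the most abundant gene, exceeded Mir375 by 292 times and Mir208b by 5525 times. For comparison, the endothelial gene Mir126a averaged 30480 ± 2051 CPM, and the erythroid genes Mir451a and Mir144 had 654 ± 74 and 56.5 ± 4.8 CPM. Mir375 was thus close to Mir451a in replicate 1 (613 against 601 CPM) and below it in replicate 2 (448 against 707 CPM). Both liver and gut members averaged above Mir144.

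**Figure D3:**
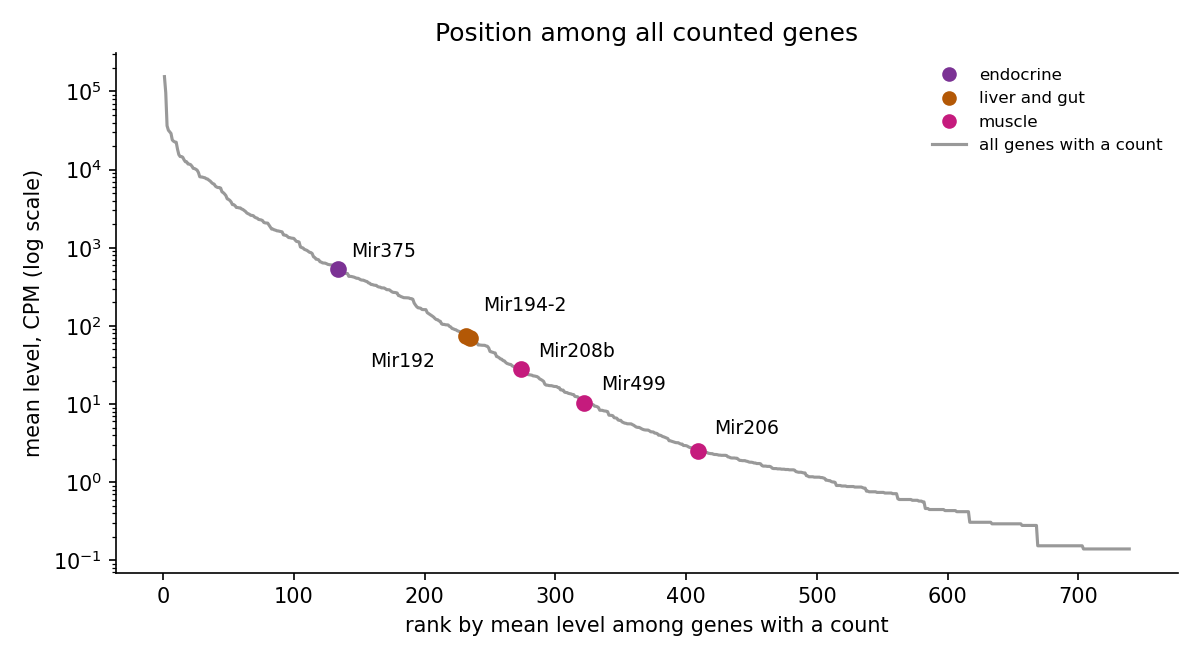
Mean level in CPM (log scale) of all genes with a count, ordered by rank (grey line), with the 6 members that had counts marked by organ. Mir375 sits at rank 134, the liver and gut pair at 232 and 235, and Mir206 at 409, where the line flattens toward single counts; Mir133b had no count and is not drawn.

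Genes nearest to each member in level were found by the distance of log2(CPM + 1) over the 2 libraries, among 735 genes with a symbol and a count. Nearest to Mir375 were Mir1251 (471 ± 31 CPM) and Mir676 (608 ± 75 CPM). Mir194-2 lay next to Mir199a-2 and Mir138-1, and Mir192 next to Mir129-2 and Mir199a-2. Mir208b had Mir1188 and Mir1968 as neighbours, and Mir499 had Mir3475 and Mir122. Mir206 lay beside Mir7070 and Mir7647, at 8 counts in each library for Mir7070 and at 8 and 9 for Mir7647. With 2 libraries, this likeness is one of level alone.

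Between the pools, Mir375 was the only member that passed the test of a difference. An exact binomial test, two-sided, asked whether a gene's counts split as the library sizes do, over the 401 genes with a mean count of at least 10. It covers counting error and compares these 2 libraries, not conditions. With Benjamini-Hochberg adjustment at 0.05 it called 43.4% of all tested genes, 19.7% higher and 23.7% lower in replicate 1. Of the 5 members tested it called 1, which was higher in replicate 1. With 5 genes, this share cannot be set firmly against that of all genes. The median log2 ratio was −0.02 over the 5 members and −0.03 over all 401 genes. Mir206 fell under the mean count of 10. With no filter it was tested and did not pass, at a log2 ratio of 0.26 (exact interval −1.27 to 1.85, adjusted p = 1, exact binomial test). Mir133b had no counts to test.

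On the log2 scale Mir375 rose by 0.42 in replicate 1 over replicate 2 (exact interval 0.33 to 0.52), a 1.34-fold difference (adjusted p = 1.44e-17, exact binomial test). A ratio of this size or more, in either direction, was found for 69 of the 401 tested genes, and the SD of the ratio among the 59 genes with mean counts from 1000 to under 3000 was 0.37. The difference of Mir375 was beyond counting error and close to 1 SD of genes with like counts.

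The other 4 tested members had ratios nearer to 0 than the median size of 0.17 over all tested genes. Mir208b lay at 0.06 (interval −0.37 to 0.48, adjusted p = 0.94, exact binomial test) and Mir499 at −0.02 (−0.73 to 0.69), with the sign of Mir499 turning to 0.01 under total-count scaling and DESeq2 size factors. Mir194-2 lay at −0.05 (−0.31 to 0.21) and Mir192 at −0.09 (−0.35 to 0.18), with adjusted p of 0.88 and 0.71 in the exact binomial test. Missing the threshold does not show equality, and the interval of Mir499 is the widest of the 5.

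**Figure D4:**
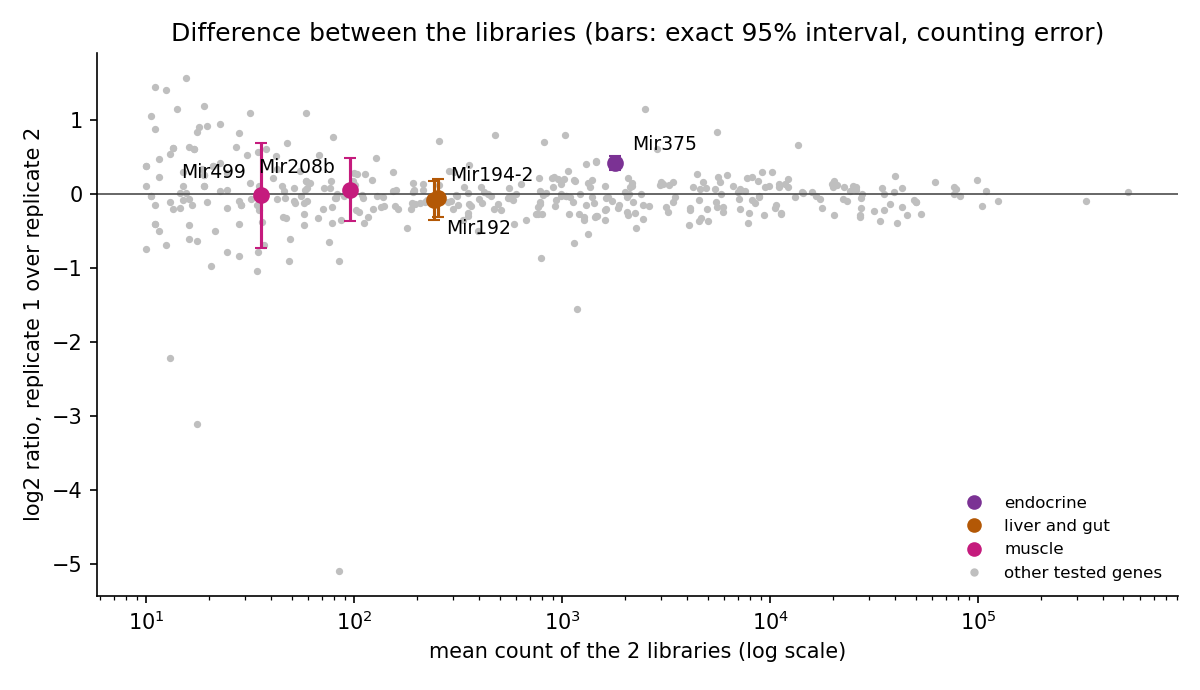
Log2 ratio of replicate 1 over replicate 2 against the mean count (log scale) for the 401 tested genes (grey) and the 5 tested members (coloured by organ), with exact 95% intervals for counting error. Mir375 at 0.42 is the one member whose interval lies clear of 0.

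Within the endocrine list, Mir375 rose and Mir7-1 fell by 0.27 on the log2 scale (exact binomial test, adjusted p = 8.08e-04). The other 5 of the 7 tested did not pass, with ratios from −0.11 for Mir7-2 to 0.10 for Mir216a. None of the 5 tested heart and muscle genes and none of the 3 tested liver and gut genes passed. The calls in the marker lists of other cell types stand beside the 43.4% called over all tested genes. By direction, 19.7% of all tested genes were higher and 23.7% lower in replicate 1. No list was tested as a whole. The epithelial list summed to 10352 CPM in replicate 1, against 9076 CPM in replicate 2, with 5 of 7 genes higher, none lower and none at 0, among them Mir429 at 0.29, while Mir205 lay at −0.04 and did not pass. The forebrain progenitor list summed to 20317 and 17757 CPM, of which Mir92b alone gave 19407 and 17048 CPM. Of its 7 tested genes 4 were higher, among them Mir92b at 0.16, and none was lower. None of its 8 counted genes was at 0. In the multiciliated list, which summed to 2220 and 1795 CPM, Mir449a rose by 1.15 and Mir34c fell by 0.22, with 2 others tested that did not pass and none of 5 at 0. The erythroid list summed to 693 and 792 CPM, where Mir451a fell by 0.26, the other 2 tested did not pass and none was at 0. Mir126a, the endothelial gene counted, fell by 0.17. Their part in the difference of Mir375 was not tested.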

How the data were processed

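Small RNA libraries of fragments under 30 bases were analysed from the 2 forebrain pools. The authors deposited raw counts of reads per gene, not normalized, for either strand, the gene's strand and the opposite strand; the gene-strand count was used. Its share of the reads counted regardless of strand was 96.7% in replicate 1 and 96.4% in replicate 2. Per the deposited file notes the assembly was mm10 and the annotation M4. The sources used here name no aligner or counter. The 4 tallies (no read ambiguous; on average 25.0% of reads unmapped, 29.4% mapped to several places and 8.05% to no listed gene) stayed out of library sizes. Symbols and coordinates came from GENCODE release M21, which named 1894 of the 1973 genes; sequences came from RefSeq.

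Ratios used TMM factors (edgeR 4.0.16, R 4.3.3) computed on the 401 genes with a mean count of at least 10, with a pseudocount of 0.5. DESeq2 1.42.0 size factors, total scaling, TMM factors from all genes, other filters and both strands were alternatives. The choice of the 401 genes for the factors was made after both results were seen. Python 3.11.15 and scipy 1.17.1 did the tests. The library test was also run on simulated counts with counting error only, so that run does not cover other spread between the pools. Members and lists were chosen with earlier results of these data known. Named genes are the members, the 2 highest genes of each list and the 2 genes nearest to each member; the others named were chosen after their values were seen, as were the comparison of intervals between neighbouring members, the ratios between genes and the SD among genes with counts like those of Mir375.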

Additional observations from a re-analysis of the deposited data

Results flagged for a closer look

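Opposite-strand counts, which enter no comparison above, were over 3 in both libraries for 2 genes of the organ lists. At Mir486 they numbered 20 in replicate 1 and 17 in replicate 2, where Mir3107, the gene also called mir-486b, overlaps on the other strand. At Mir194-1 they numbered 4 in each library, against 1 count in each on the gene's own strand, and Iars2 lies on the other strand there. None of the 7 members had an opposite-strand count.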

How the results depend on the processing

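The number of members reaching 10 counts in both libraries was 5 on either strand, at a minimum of 20 counts and in each library alone, and 6 at a minimum of 5 counts, where Mir206 passed. Mir375 was the member called different under total-count scaling, DESeq2 size factors, no filter, a mean count of 20, counts on either strand and TMM factors from all genes, with log2 ratios from 0.40 to 0.45. The ratio of Mir499, which never passed, was 0.0143 under total-count scaling and 0.0140 under DESeq2 size factors. Over all genes these scalings each gave 93 higher and 84 lower in replicate 1, against 79 and 95. TMM factors from all genes gave 72 higher and 103 lower, and 0.40 for Mir375. The gene set for the factors was settled after the results of both were seen.

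As a share of all reads in the files, muscle members held 0.00153%, the liver and gut pair 0.00542% and Mir375 0.0199%. On either strand the liver and gut share was 0.0139%. Without its most abundant member, the muscle share was 0.00129% without Mir208b and the liver and gut share 0.00708% without Mir194-2. Leaving out a replicate gave 0.00397 to 0.00421% for muscle, 0.0143 to 0.0146% for liver and gut, 0.0448 to 0.0613% for Mir375, and 1.03 to 1.05 for the ratio of Mir194-2 to Mir192. The filter at a mean count of 20 (for the ratios) and the TMM factors from all genes were added after seeing the data.

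No paired analysis was possible because there is 1 group. Depth limits Mir206, whose ratio had a wide interval when tested with no filter. For Mir133b there were no counts to test, and loss of its reads to several places was not examined.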
